A study of Mus musculus with 221 samples.

Results

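The heterogeneous nuclear ribonucleoproteins (hnRNPs) are RNA-binding proteins that coat nascent transcripts in the nucleus and take part in the choice of splice sites, in the export of messenger RNA and in its decay. Many of them bind short sequence motifs in introns and exons and act as repressors or enhancers of neighbouring exons, and several control their own messages through alternative exons that lead to nonsense-mediated decay (NMD). The 10 genes described here are *Hnrnpa1*, *Hnrnpa2b1*, *Hnrnpa3*, *Hnrnpc*, *Hnrnpd*, *Hnrnph1*, *Hnrnpk*, *Hnrnpl*, *Hnrnpm* and *Hnrnpu*. They were chosen by gene symbol, with earlier results of these data known. They account for 137 of the 278369 transcripts and 10 of the 78317 genes in the deposited tables.

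Full-length complementary DNA (cDNA) of single sorted mouse cells, made by Smart-seq2, was read on a nanopore instrument, in which 1 read can span a whole transcript. Hemogenic endothelium (HE) is the endothelium from which blood cells emerge. Cells came from GFI1-GFP and RUNX1B-RFP reporter embryos. HE of the aorta-gonad-mesonephros region (AGM) was sorted as RUNX1+ KIT- CDH5+ CD41- CD45-, with or without GFI1, and came from E9.5 and E10.5 embryos. HE of the yolk sac (YS) was sorted as RUNX1+ KIT+ CD31+ CD41- CD45-, also with or without GFI1, and came from E9, E9.5 and E10.5 embryos. No agent was given to any group. HE-AGM held clusters c3 (early, 29 cells) and c4 (late, 20 cells), HE-YSA, the arterial type of the yolk sac, held m1 (23 cells) and m2 (29 cells), and HE-YSP, the plexus type, held b2 (25 cells) and b3 (24 cells). The other clusters were AGM c5 (21 cells) and the yolk sac progenitor clusters p1 (17 cells) and p2 (20 cells). Cells of p1 came from E9.5 and E10.5 embryos, and cells of p2 from E9, E9.5 and E10.5 embryos. E9 cells were common in HE-YSP and p2, rare in HE-YSA and absent from p1. Comparisons of HE-YSP with HE-AGM, of HE-YSP with HE-YSA and of p1 with p2 therefore also differ in embryonic day. KIT was used with opposite sign in the AGM and YS sorts.

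In all, 208 cells had at least 17595 estimated counts and were kept, and 13 were left out. The median total of a kept cell was 59311 counts for HE-AGM (range 30323 to 125339), 34484 for HE-YSA (18543 to 71389) and 33297 for HE-YSP (18131 to 84052). All 6 genes of an endothelial marker list were present in each HE population, at a summed 1479, 1271 and 1246 CPM (counts per 1000000 counts of the group) in HE-AGM, HE-YSA and HE-YSP. The 5 arterial markers summed to 952, 521 and 20.9 CPM, and the 4 yolk sac plexus markers to 1.80, 109 and 1165 CPM in the same order. The 7 genes of a blood emergence list, among them *Runx1* and *Kit*, which were used in the sorts, summed to 667, 335 and 206 CPM and so were higher in HE-AGM, as were the hnRNP genes called higher there. The 4 megakaryocyte markers summed to 28.5, 14.2 and 87.3 CPM. *Ptprc*, which encodes CD45, was at 0 in both YS HE populations. The 7 erythroid markers reached 185 CPM in HE-AGM, with 9176 CPM in 1 cell and a median of 0, against 44.1 and 32.9 CPM in the YS populations; macrophage, mesenchyme and yolk sac endoderm lists summed to at most 8.40 CPM in any HE population. The part of these markers in the results was not tested. The labels tie no cell to an embryo, and each population therefore counted as 1 sample. No test or p-value was computed, and the 3 nanopore runs, each with cells of every cluster, serve only as a check on direction. AGM and YS cells also came from different cDNA projects (3 kept cells of HE-YSA go against this, by project or library name), so tissue and cDNA project cannot be told apart. Single-cell values are given as well. A cell at 0 may hold a message that was not read. These values therefore cannot tell less of a message in each cell from more cells without it.

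Sequences of 3 stretches whose shares are compared below are shown first. They were read from reference transcripts of GENCODE M21 (GRCm38) that matched the transcripts in the tables by identifier and length, as 136 of the 137 did. The pair shown first are introns of *Hnrnpk* kept in Hnrnpk-206 (chr13:58393869-58394075, minus strand, 207 bases) and in Hnrnpk-217 (chr13:58393775-58393852, minus strand, 78 bases), which are annotated as retained-intron transcripts. Capitals mark the first and last pair of bases, where the splice sites lie.
Hnrnpk-206 intron: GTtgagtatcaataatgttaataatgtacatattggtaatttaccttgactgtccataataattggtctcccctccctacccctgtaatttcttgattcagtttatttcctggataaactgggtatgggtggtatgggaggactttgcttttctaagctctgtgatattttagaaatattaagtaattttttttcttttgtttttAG
Hnrnpk-217 intron: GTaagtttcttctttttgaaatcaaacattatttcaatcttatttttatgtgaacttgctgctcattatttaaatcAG
The other is an exon of *Hnrnpl* (chr7:28817335-28817404, plus strand, 70 bases) that is part of the NMD transcript Hnrnpl-213 and absent from the coding transcript Hnrnpl-209. Its length is not a multiple of 3.
Hnrnpl-213 exon: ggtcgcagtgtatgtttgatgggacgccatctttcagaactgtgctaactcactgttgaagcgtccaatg

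The level of each gene was the sum of its transcripts' estimated counts over the cells of a group, in CPM. A gene was called higher or lower where the log2 ratio of 2 groups was at least 1 in size with the same sign in each of the 3 runs, among genes with a mean of at least 10 CPM. By this rule 3 of the 10 genes were higher in HE-AGM than in HE-YSA and 1 was lower, where 22.8% of all 8661 genes assessed were higher and 11.3% lower. Against HE-YSP, 3 were higher and 0 lower, with 25.1% and 13.5% of all 8610 genes assessed past the same limits. The shares of the family were thus close to the background for higher levels. The median log2 ratio of the 10 genes was 0.55 against HE-YSA and 0.45 against HE-YSP, beside 0.18 and 0.20 over all genes assessed. Between HE-YSA and HE-YSP none of the 10 genes was called (5.73% of genes higher and 5.22% lower), the median ratio was -0.04, and its sign depended on the setting. The 3 genes called higher in both AGM comparisons were *Hnrnpl*, *Hnrnpd* and *Hnrnpa1*; the comparisons share the HE-AGM cells.

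**Figure D1:**
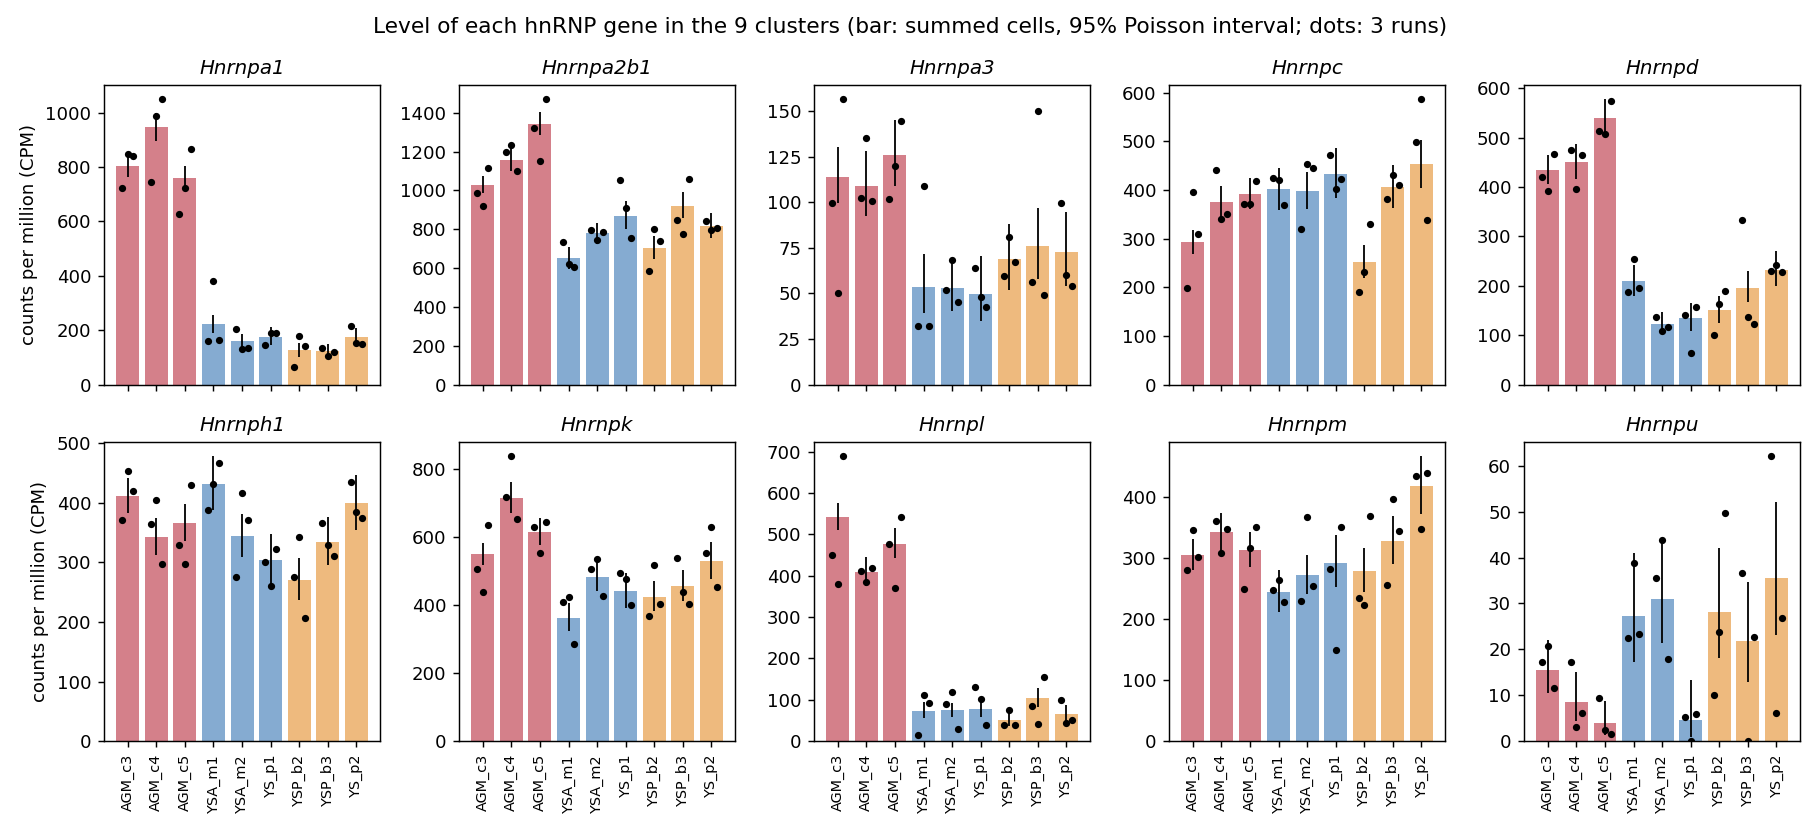
Level of each of the 10 hnRNP genes (y axis, CPM; each panel has its own scale) in the 9 clusters (x axis; red, AGM; blue, arterial yolk sac and p1; orange, yolk sac plexus and p2). Bars are the summed cells with 95% Poisson intervals, which cover counting error only, and dots are the 3 runs; for *Hnrnpl* the 3 AGM clusters sit between 409 and 542 CPM and the 6 YS clusters between 50.5 and 105 CPM.

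*Hnrnpl* encodes a protein that binds CA-rich RNA and is known as a regulator of exon inclusion. It was at 487 CPM (95% Poisson interval 463 to 511) in HE-AGM, 74.3 CPM (62.8 to 87.8) for HE-YSA and 77.2 CPM (64.4 to 91.7) for HE-YSP. Single cells ranged from 27.01 to 1281 CPM in HE-AGM with a median of 414, from 0 to 480 in HE-YSA with a median of 0, and from 0 to 415 in HE-YSP with a median of 22.9. The ranges overlapped, but all 49 HE-AGM cells had counts of *Hnrnpl*, whereas 27 of 52 HE-YSA cells and 23 of 49 HE-YSP cells were at 0. With every cell thinned to the same total, 98.0%, 32.7% and 32.7% of cells kept at least 1 count, against 100%, 44.2% and 44.9% before. The log2 ratio was 2.71 against HE-YSA (2.82, 1.71 and 3.26 in runs 1, 2 and 3) and 2.65 against HE-YSP (2.81, 2.64 and 2.47). Of all genes assessed, 95.7% and 93.5% had a lower ratio. In cells with 30000 to 60000 counts the ratios were 2.50 and 2.33. The order of the clusters was c3, c5 and c4, then b3, p1, m2, m1, p2 and b2, and a gap that no run crossed lay only between c4 and b3.

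*Hnrnpd* encodes AUF1, which binds AU-rich elements and is known for its part in messenger RNA decay. Its level was 442 CPM (419 to 465) in HE-AGM, 161 CPM (144 to 180) for HE-YSA and 173 CPM (153 to 194) for HE-YSP. Single cells reached 1159 CPM in HE-AGM (median 424, lowest 0), 600.0 for HE-YSA (median 128, lowest 0) and 599.5 for HE-YSP (median 104, lowest 0). At 0 were 1 of 49 HE-AGM cells, 12 of 52 HE-YSA cells and 15 of 49 HE-YSP cells. The log2 ratio was 1.45 against HE-YSA and 1.35 against HE-YSP, with run values from 1.13 to 1.60 and from 1.05 to 1.60. In c5 the level was 539 CPM, above every run of c3 and c4 (392 to 474 CPM). *Hnrnpd* was not called from c4 to c5, and the share of all genes with such a gap was not computed. The yolk sac clusters lay between 123 CPM in m2 and 232 CPM in p2, and neighbours among them overlapped between runs.

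*Hnrnpa1*, *Hnrnpa2b1* and *Hnrnpa3* encode the A/B proteins, which are best known as repressors of exon inclusion. *Hnrnpa1* was at 863 CPM (832 to 895) in HE-AGM, 188 CPM (169 to 208) for HE-YSA and 124 CPM (108 to 142) for HE-YSP. Its cells ranged from 228 to 1669 CPM in HE-AGM (median 812), up to 766 for HE-YSA (median 146) and up to 300.2 for HE-YSP (median 123), with lowest values of or near 0 in both YS populations. The log2 ratio was 2.20 against HE-YSA (1.95, 1.86 and 2.66 in the runs) and 2.80 against HE-YSP (2.90, 2.62 and 2.81). *Hnrnpa2b1* was at 1083, 722 and 811 CPM in HE-AGM, HE-YSA and HE-YSP, with log2 ratios of 0.59 and 0.42 that kept their sign in each run but stayed under the limit. *Hnrnpa3* was at 112, 53.2 and 72.1 CPM, and its ratio of 1.07 against HE-YSA was not called, since it was -0.03 in run 2. These levels count only what was assigned to the genes themselves, which the pseudogene values below change.

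**Figure D2:**
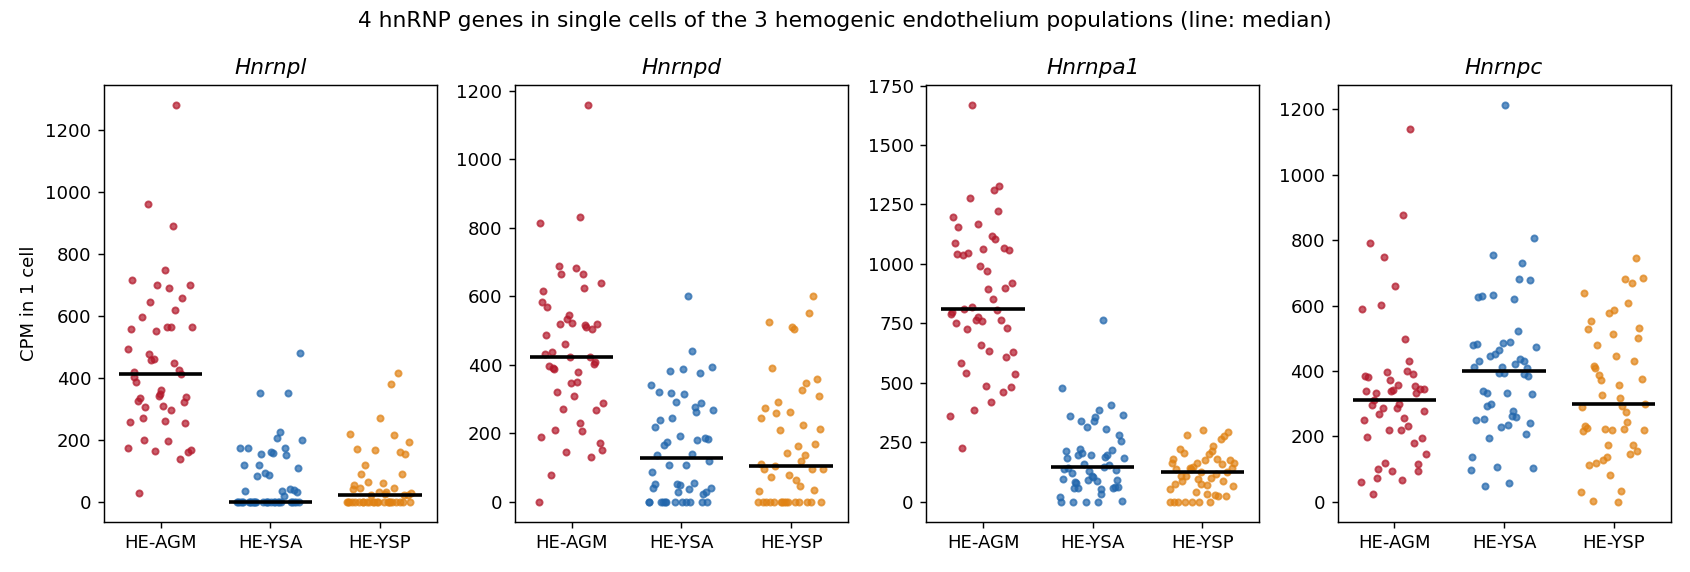
CPM in each cell (y axis; 1 dot, 1 cell; black line, median) for *Hnrnpl*, *Hnrnpd*, *Hnrnpa1* and *Hnrnpc* in HE-AGM (49 cells), HE-YSA (52) and HE-YSP (49). The medians of *Hnrnpl* are 414, 0 and 22.9 CPM, and those of *Hnrnpc* are 312, 401 and 298 CPM.

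Of the remaining genes, *Hnrnpu* alone was called between HE populations. *Hnrnpc*, whose protein binds uridine tracts on nascent RNA, was at 327 CPM in HE-AGM, 399 for HE-YSA and 327 for HE-YSP, with log2 ratios of -0.29 and 0.00. *Hnrnph1*, whose product binds runs of guanines, was at 382, 383 and 302 CPM. *Hnrnpm*, which encodes a splicing regulator that binds GU-rich motifs, was at 320, 259 and 303 CPM. *Hnrnpk*, which encodes a poly(C)-binding protein with roles in transcription and translation, was at 620, 431 and 441 CPM, with ratios of 0.52 and 0.49 that kept their sign in each run. *Hnrnpu*, which encodes the nuclear scaffold protein SAF-A, held only 42, 56 and 42 counts in the 3 populations, or 12.6, 29.4 and 25.1 CPM. It was the 1 gene called lower in HE-AGM than in HE-YSA (log2 ratio -1.22), and 90.5%, 98.2% and 100% of its counts lay in transcripts that lack the last exon, so few of them stand for a complete message.

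None of the 10 genes was called between c4 and c3, between m2 and m1, or between b3 and b2, where the share of all genes higher in the later cluster was 4.62%, 5.23% and 8.99% and the share lower was 8.44%, 7.71% and 8.58%. *Hnrnpl* went from 50.5 CPM in b2 to 105 CPM in b3, a log2 ratio of 1.04 that had the opposite sign in run 2 (-0.84). *Hnrnpc* went from 251 to 406 CPM in the same pair and *Hnrnpd* from 209 CPM in m1 to 123 CPM in m2. Their log2 ratios of 0.69 and -0.77 stayed under the limit. *Hnrnpk*, at 550.1 and 716 CPM in c3 and c4 and 364 and 484 CPM in m1 and m2, also stayed under it. So did *Hnrnpa2b1*, at 650.4 and 778 CPM in m1 and m2. Apart from the *Hnrnpl* pair, whose runs overlapped, these pairs are named because their runs did not overlap. The share of all genes with such a gap was not computed, so the gaps are not read as changes. None was called from c4 to c5 (9 genes assessed, 4.57% of all genes higher and 9.27% lower) or from b3 to p2 (5.77% and 7.84%). From m2 to p1 only *Hnrnpu* was called, lower at 4.57 CPM in p1 (7.73% higher and 9.02% lower over all genes), and it was also lower in p1 than in p2, at 35.5 CPM (6.61% and 6.26%). The p1 value rests on 3 counts. In c5 against p1 the log2 ratio was 2.61 for *Hnrnpl*, 2.11 for *Hnrnpa1*, 2.00 for *Hnrnpd* and 1.32 for *Hnrnpa3*, all 4 called (20.3% of all genes higher, 15.3% lower). In c5 against p2 it was 2.82, 2.12 and 1.21 for the first 3, which were called, and *Hnrnpu* was called lower at -3.07 (19.6% and 16.1%). The c5 value of *Hnrnpu* rests on 6 counts. With the pseudogenes matched by sequence, which are described next, *Hnrnpa1* was at 1174 CPM in c5, lower than the 1579 CPM in p1 and the 1794 CPM in p2, and *Hnrnpa3* was at 156 CPM in c5, 137 CPM in p1 and 150.2 CPM in p2.

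Processed pseudogenes are copies of a spliced message in the genome, and reads of the gene can align to them. In GENCODE M21, 87 pseudogenes matched one of the 10 genes with at least 80% identity over at least 50% of their length, all of which are in the tables. *Hnrnpa3* had 44, *Hnrnpa1* 26, *Hnrnpa2b1* 5, *Hnrnpc* 4, *Hnrnph1* and *Hnrnpk* 3 each, *Hnrnpd* and *Hnrnpl* 1 each, and *Hnrnpm* and *Hnrnpu* 0. The search was made after the gene levels had been seen.

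For *Hnrnpa1* the pseudogenes ran opposite to the gene. They summed to 487 CPM in HE-AGM, 1309 for HE-YSA and 1031 for HE-YSP, so that gene and pseudogenes together gave 1350, 1497 and 1156 CPM. The log2 ratio of this sum was -0.15 against HE-YSA and 0.22 against HE-YSP, in place of 2.20 and 2.80. Most of the pseudogene counts were given to Gm16216 (1111 bases, 97.0% identity), at 346, 996 and 749 CPM. Gm16216 is annotated in the reverse orientation to the message, and its match ends 719 bases before the 3′ end of Hnrnpa1-201.

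For *Hnrnpk* the sum reversed the direction. Gm7964, a processed pseudogene of 1378 bases with 99.2% identity, was at 300.4 CPM in HE-AGM, 1125 for HE-YSA and 1109 for HE-YSP. With it the log2 ratio went from 0.52 to -0.76 against HE-YSA and from 0.49 to -0.75 against HE-YSP, with the same sign in each run. Its match covers bases 275 to 1651 of a 2970-base *Hnrnpk* transcript and leaves out the last 1319. For *Hnrnpc*, Gm12696 was at 154, 487 and 419 CPM, and the summed ratios were -0.88 and -0.63, in place of -0.29 and 0.00. For *Hnrnpa3* the sums were 161, 162 and 182 CPM, with log2 ratios of -0.01 and -0.17.

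*Hnrnpa2b1* went the other way. Gm43199, a pseudogene of 307 bases and 87.0% identity, was at 1124 CPM in HE-AGM, 472 for HE-YSA and 531 for HE-YSP, and the summed log2 ratios were 0.89 and 0.72. At that identity the counts may not be reads of *Hnrnpa2b1*, which was not tested. *Hnrnpl* and *Hnrnpd* were hardly touched: their matched pseudogenes held at most 0.9 CPM and 0 CPM, and their ratios stayed at 2.69 and 2.64, and at 1.45 and 1.35. Over the 10 genes the median log2 ratio with matched pseudogenes was -0.05 against HE-YSA and 0.12 against HE-YSP. Which of the reads assigned to pseudogenes came from the genes was not tested.

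**Figure D3:**
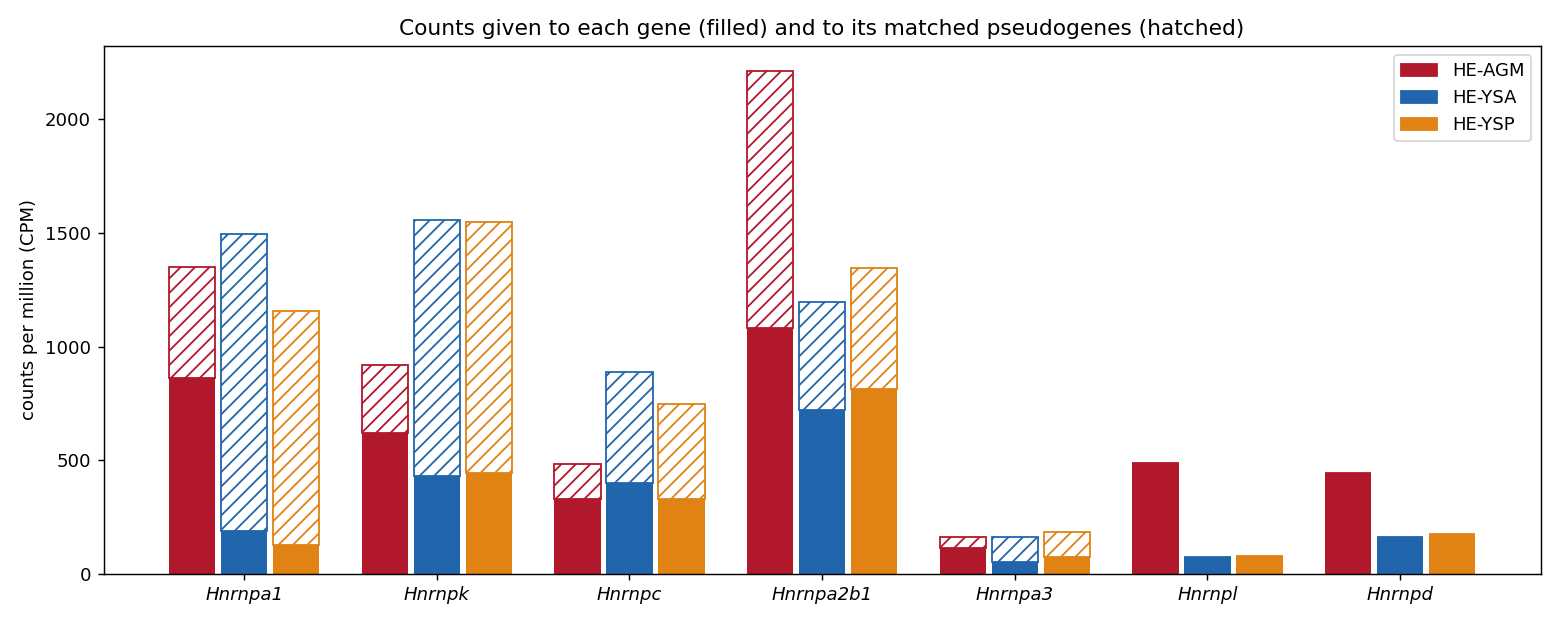
CPM (y axis) assigned to 7 hnRNP genes (filled) and, stacked on them, to the pseudogenes matched to each by sequence (hatched), in HE-AGM (red), HE-YSA (blue) and HE-YSP (orange). The filled *Hnrnpa1* bars stand at 863, 188 and 124 CPM and the full bars at 1350, 1497 and 1156 CPM, while *Hnrnpl* and *Hnrnpd* have almost no hatched part.

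**Figure D4:**
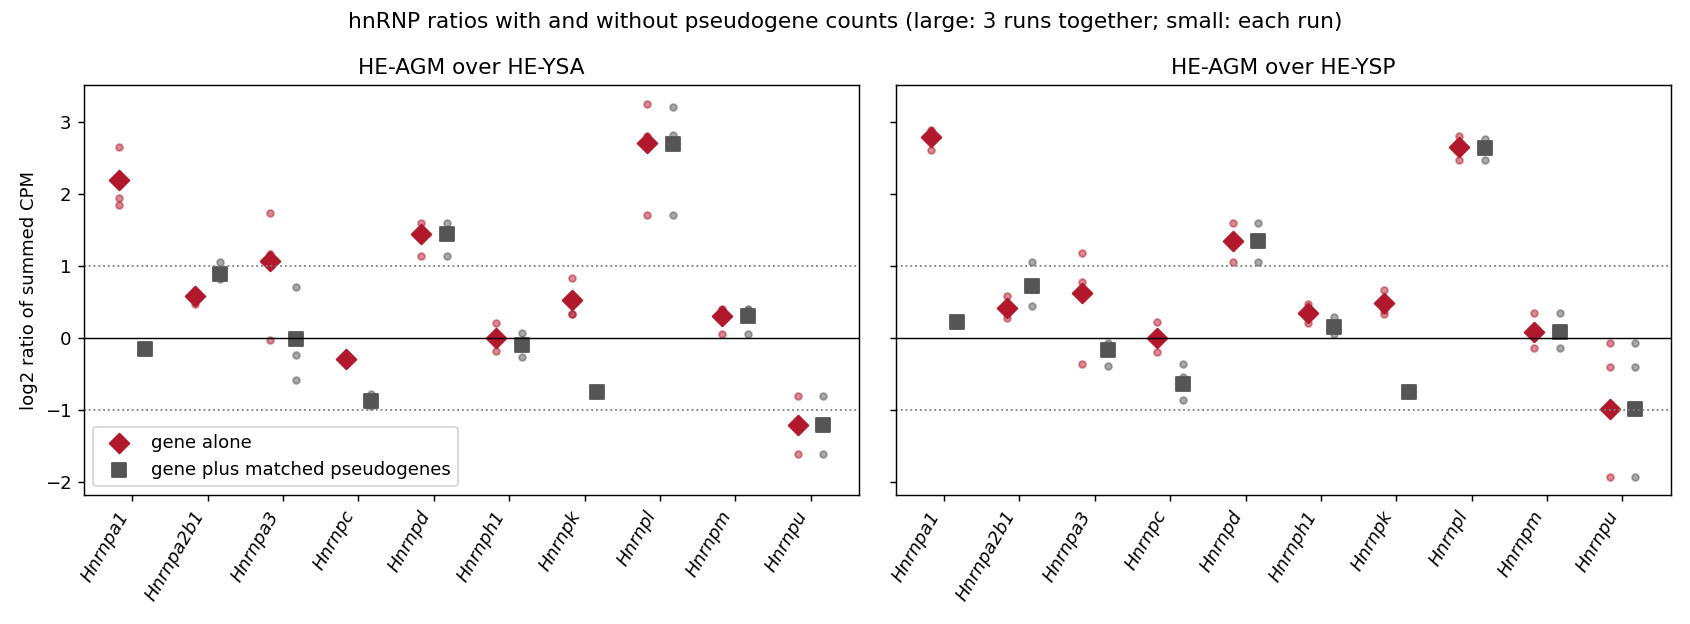
Log2 ratio of summed CPM (y axis) of each of the 10 genes (x axis) in HE-AGM over HE-YSA and over HE-YSP. Red diamonds count the gene alone and grey squares the gene with its matched pseudogenes; small dots are the 3 runs and dotted lines mark ratios of 1 and -1. *Hnrnpa1* moves from 2.20 to -0.15 in the first comparison, *Hnrnpk* from 0.52 to -0.76, and *Hnrnpl* stays at 2.7.

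The transcripts of the family also divided differently between the tissues. A transcript was counted as lacking the last exon where it does not overlap the last exon of the gene's longest coding transcript in GENCODE M21. Such transcripts held 12.1% of the family's counts in HE-AGM (95% Clopper-Pearson interval 11.6 to 12.7%), 31.8% for HE-YSA (30.5 to 33.2%) and 30.01% for HE-YSP (28.6 to 31.4%). The clusters of the AGM lay between 9.79% and 12.6% and those of the yolk sac between 28.95% and 34.1%, and no run of one tissue reached the other. How often other sets of genes show such a gap was not computed. This pooled share weights each gene by its counts and so also depends on the gene levels. *Hnrnpa1* and *Hnrnpd*, called higher in HE-AGM, had at most 5.78% of their counts in such transcripts in any HE population. The part of the gene levels in the pooled share was not tested. A change was called where the share differed by at least 10 points, with the same sign in each run. The gene needed at least 50 counts in both populations and a set minimum share of counts in transcripts matched to GENCODE M21. *Hnrnpa2b1* fell below this minimum, with 78.9% matched in HE-YSA and 78.4% in HE-YSP, and was not assessed. Its shares without the last exon were 28.6%, 24.7% and 28.1% in HE-AGM, HE-YSA and HE-YSP. Of 8 genes assessed, 5 had a lower share in HE-AGM than in HE-YSA, where 20.6% of all 3117 genes assessed were lower and 1.09% higher. Against HE-YSP 4 of 8 were lower, with 20% of 2774 genes lower and 1.48% higher. The median difference of the 8 genes was -17.1 and -10.0 points, beside -1.47 and -1.11 points over all genes. The median over cells of the mean annotated transcript length, over all genes, was 1477 bases in HE-AGM, 1159 for HE-YSA and 1156 for HE-YSP. Its part in these shares was not tested. Shares here and below are of counts assigned to the genes. Of gene and matched pseudogene counts together, pseudogenes held 32.7%, 72.3% and 71.5% for *Hnrnpk* in HE-AGM, HE-YSA and HE-YSP. They held 32.1%, 54.9% and 56.2% for *Hnrnpc* and 30.6%, 67.1% and 60.3% for *Hnrnpa3*. *Hnrnpa2b1* went the other way, at 51.0%, 39.7% and 39.8%. The part of this split in the shares was not tested.

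*Hnrnpk* had the widest gap of the 8 genes assessed. Its counts in transcripts without the last exon were 11.8% (10.4 to 13.2%) in HE-AGM, 63.3% (59.9 to 66.6%) for HE-YSA and 61.9% (58.2 to 65.3%) for HE-YSP. Hnrnpk-214, a coding transcript of 1004 bases, held 3.98%, 24.6% and 26.6%. The shares of the transcripts with the 207-base intron printed above were 31.1% in HE-AGM (28.01, 28.2 and 34.4% in the runs), 12.8% for HE-YSA and 11.9% for HE-YSP. For the 78-base intron they were 24.7%, 7.17% and 9.10%. Hnrnpk-206 and Hnrnpk-217, which carry these introns, have 1380 and 874 bases, start inside the gene and reach its last exon. An estimated count does not show that each read crossed the intron.

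With these transcripts, 64.8% of the *Hnrnpk* counts of HE-AGM lay outside protein-coding transcripts, against 36.5% for HE-YSA and 40.6% for HE-YSP. Both differences were called, and *Hnrnpk* was the only gene of the 9 assessed that was called higher in HE-AGM than in HE-YSA (8.41% of all genes higher, 11.8% lower). *Hnrnpa3* was called lower in both, at 6.62% against 33.1% and 25.8%. *Hnrnpa2b1* was called higher against HE-YSP alone, at 38.7% against 26.7% (8.33% and 11.4% of all genes), and stood at 30.8% in HE-YSA. Between HE-YSA and HE-YSP no gene of the family was called (2.59% and 2.77%). Over the 10 genes the share outside protein-coding transcripts was 26.4% (25.7 to 27.1%) in HE-AGM, 23.8% (22.6 to 24.9%) for HE-YSA and 22.998% (21.8 to 24.3%) for HE-YSP, with run values from 24.8 to 27.03%, from 18.8 to 27.3% and from 20.4 to 25.2%. The runs of HE-AGM overlapped those of both YS populations. This pooled share weights each gene by its counts. The median difference of the 9 genes assessed was -2.94 points against HE-YSA and -0.09 points against HE-YSP, beside 0 over all genes. Of the 137 transcripts, 66 are annotated as protein-coding, 36 as retained intron, 20 as having no defined coding sequence and 15 as NMD.

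In some other genes, too, transcripts that lack the last exon held a larger share in the YS populations. For *Hnrnpc* these held 8.82% of counts in HE-AGM, 44.9% for HE-YSA and 35.2% for HE-YSP, and the 745-base Hnrnpc-203 alone held 5.33%, 37.8% and 28.4%. All counts of *Hnrnpc* were in transcripts annotated as coding, so the biotype did not register this difference. For *Hnrnpa3* the shares were 7.43%, 42.2% and 34.9%, with Hnrnpa3-205 (596 bases, retained intron) at 6.62%, 33.1% and 25.8% and the 1734-base Hnrnpa3-202 at 30.7%, 4.66% and 5.29%. *Hnrnpm* had 7.40%, 30.3% and 17.98%, and *Hnrnph1* 6.51%, 17.8% and 14.4%, called against HE-YSA only. *Hnrnpm* was also higher in HE-YSA than in HE-YSP (3.14% of genes higher, 2.37% lower).

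The level ratios changed with the transcripts counted. In transcripts that reach the last exon the log2 ratio of *Hnrnpk* was 1.79 against HE-YSA and 1.70 against HE-YSP, and in those that do not it was -1.90 and -1.90. For *Hnrnpa3* these were 1.74 and 1.14, and -1.43 and -1.59; for *Hnrnpc*, 0.44 and 0.49, and -2.63 and -1.99. For *Hnrnpl* both kinds were higher in HE-AGM, at 2.65 and 2.81 with the last exon and 3.15 and 1.77 without it, and for *Hnrnpd* at 1.44 and 1.35, and 1.73 and 1.38.

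**Figure D5:**
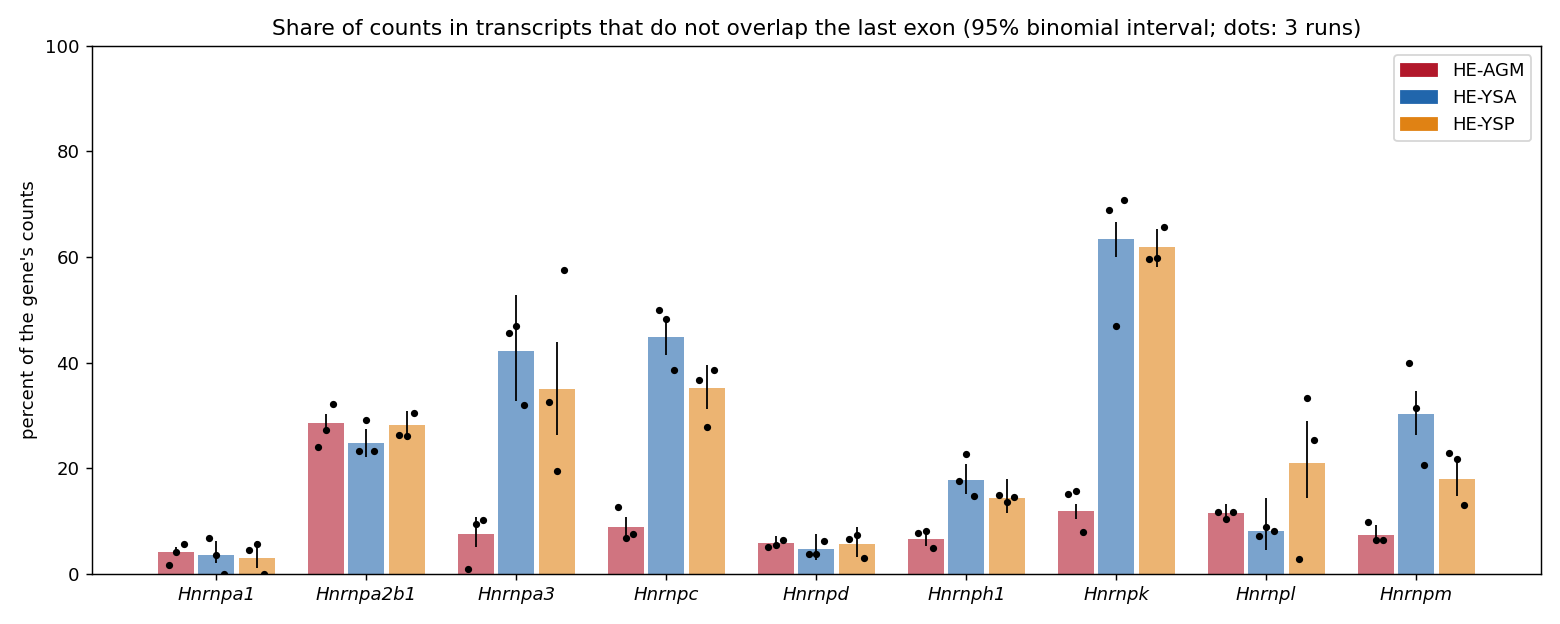
Percent of each gene's counts in transcripts that do not overlap the last exon (y axis) for 9 hnRNP genes (x axis) in HE-AGM (red), HE-YSA (blue) and HE-YSP (orange). Bars have 95% Clopper-Pearson intervals, which cover counting error only, and dots are the 3 runs; *Hnrnpk* stands at 11.8%, 63.3% and 61.9%, while *Hnrnpa1* stays at or below 4.196%.

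For the 3 genes called higher in HE-AGM, no share outside protein-coding transcripts or without the last exon was called. *Hnrnpa1* gave 35.4%, 36.5% and 41.6% of its counts to Hnrnpa1-201, 34.2%, 33.1% and 33.9% to Hnrnpa1-202, and 24.7%, 26.8% and 21.6% to Hnrnpa1-205. *Hnrnpd* gave 65.0%, 61.4% and 62.4% to Hnrnpd-203 and 24.8%, 26.999% and 22.8% to the NMD transcript Hnrnpd-209. For *Hnrnpl*, Hnrnpl-209 held 42.2%, 49.4% and 43.9%. The transcripts with the 70-base exon held 8.39% (7.09 to 9.85%) in HE-AGM, 11.2% (6.58 to 17.7%) for HE-YSA and 5.997% (2.72 to 11.9%) for HE-YSP. A difference was not detectable at this depth, since these intervals overlap and the YS shares rest on 15.8 and 7.74 counts.

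Some transcripts could not be told apart. Hnrnpa2b1-202, Hnrnpa2b1-203 and Hnrnpa2b1-213 had the same estimate in every cell, as did Hnrnpl-201 with Hnrnpl-211 and Hnrnpa3-201 with Hnrnpa3-207, within 0.5 counts. The 3 *Hnrnpa2b1* transcripts held 18.96% each in HE-AGM, 21.1% for HE-YSA and 21.7% for HE-YSP. The other *Hnrnpa2b1* transcripts above 10% were the retained-intron Hnrnpa2b1-207 (16.6%, 14.9% and 11.5%) and the NMD transcript Hnrnpa2b1-206 (14.7%, 12.5% and 11.6%).

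A further 17 genes of the hnRNP and poly(C)-binding families, with related proteins, were compared in the same way. Against each YS population 7 were higher in HE-AGM and 1 was lower, beside the same 22.8% and 11.3%, and 25.1% and 13.5%, of all genes. Between HE-YSA and HE-YSP 1 was higher and 0 were lower, beside 5.73% and 5.22% of all genes. Those higher in HE-AGM included *Hnrnpa0*, *Hnrnpab*, *Hnrnpf*, *Hnrnpll*, *Hnrnpul1* and *Hnrnpul2*, and the 1 lower there was *Rbmx*, which encodes hnRNP G. *Hnrnpll*, the closest relative of *Hnrnpl*, was at 49.6, 9.45 and 17.3 CPM. *Hnrnpab* was at 635, 302 and 310 CPM, and *Hnrnpf*, a relative of *Hnrnph1*, at 474, 171 and 202 CPM. *Ptbp1*, which encodes the polypyrimidine tract-binding protein, was at 383, 296 and 296 CPM and not called. *Rbmx* was at 26.05, 59.4 and 59.7 CPM (log2 ratios -1.19 and -1.19). Pseudogenes were not matched to these 17 genes.

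The genes whose level followed *Hnrnpl* most closely over the 9 clusters, by Pearson's r of log2(CPM + 1) among 9131 genes, were *mt-Nd4l* (0.99), the gene listed as ENSMUSG00000122195 (0.99), *Chchd2* (0.99), *mt-Nd2* (0.99) and *Mtmr2* (0.99). In all, 351 genes had r above 0.9, and the points share libraries, runs and the AGM and YS split. For the mean of the 10 genes they were *Pabpn1*, *S2bpcox16*, *Gm38412*, *4930408O17Rik* and *Eif4a1*, all at 0.98. *Chchd2* lay between 256 and 367 CPM in the AGM clusters and between 37.1 and 71.7 CPM in the YS clusters. *Pabpn1* lay between 108 and 126 and between 35.0 and 55.8 CPM. Within the family, *Hnrnpl* and *Hnrnpa1* had r of 0.95 over the 9 clusters, *Hnrnpa3* and *Hnrnpd* 0.93, and *Hnrnpc* and *Hnrnpl* -0.14.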

How the data were processed

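Counts were taken from cells of 9 clusters, grouped by the cluster in the sample labels. The authors basecalled and trimmed the reads, discarded chimeras, mapped what was left to the transcripts of GENCODE release 37 with minimap2 2.26 (up to 10 alignments per read) and estimated counts with NanoCount. The deposited estimated counts are not normalized, and the deposited TPM values are these counts put on a common total for each cell. Cells under 17595 counts (the median less 1 scaled median absolute deviation) were left out, as in the study's methods. Ratios used summed counts with 0.5 added. Intervals are 95% exact Poisson or Clopper-Pearson intervals on rounded counts and cover counting error only. Reads were split between similar transcripts by an estimate, so a fraction of a count is not a read. Pseudogenes were matched with blastn 2.17.0. Members were named by symbol, and their transcripts where they held at least 10% of the gene's counts in an HE population. Of the list of 17, most of the genes called were named. *Hnrnpab*, *Hnrnpf*, *Hnrnpll*, *Rbmx* and *Ptbp1* were given values after these were seen. Some results are not reported here. The members and lists were chosen with earlier results of these data known. The ratio and interval calculations were tested on simulated data. Alternatives covered the filter, TPM, edgeR TMM factors, single runs, depth, stage, cDNA project, the transcripts counted and added counts. Python 3.11.15, numpy 2.4.6, pandas 2.3.3, scipy 1.17.1, matplotlib 3.10.9, R 4.3.3 and edgeR 4.0.16 were used.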

Additional observations from a re-analysis of the deposited data

How the results depend on the processing

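No paired analysis was possible because no result comes from a test. The log2 ratios within each of the 3 runs, which hold cells of every cluster, are given as values instead. The alternatives with pseudogenes matched by sequence, without *Hnrnpu*, and by the last exon were chosen after the data were seen. Of 81 alternative values of the family medians and of the shares outside protein-coding transcripts, 65 moved by less than the SD over runs, 10 by more, and 6 changed sign. The median log2 ratio of HE-AGM over HE-YSA, 0.55, became -0.051 with matched pseudogenes and 0.20 in run 2 alone. That of HE-AGM over HE-YSP, 0.45, became 0.12 with matched pseudogenes, 0.33 in cells with 30000 to 60000 counts, 0.58 in run 3 alone, 0.57 in the early clusters alone and 0.65 with protein-coding transcripts alone. That of HE-YSA over HE-YSP, -0.04, became 0.062 with TPM, 0.030 and 0.28 in runs 1 and 2 alone, 0.22 in the early clusters and 0.043 with protein-coding transcripts alone. The share outside protein-coding transcripts became 24.8% in run 2 alone and 22.7% as a mean over cells with at least 5 counts in HE-AGM, 18.8% in run 3 alone in HE-YSA, and 20.4% in run 3 alone in HE-YSP. Among single genes called, *Hnrnpa1* against HE-YSA turned to -0.15 with matched pseudogenes, and *Hnrnpu*, with 42 and 56 counts, to 0.42 with protein-coding transcripts alone and 0.78 with transcripts that reach the last exon. *Hnrnpl* ranged from 1.71 to 3.26 against HE-YSA and from 1.77 to 3.41 against HE-YSP over the alternatives, and *Hnrnpd* from 1.05 to 1.87 and from 1.05 to 1.60. The cause of these shifts was not tested. The share of all genes called changed with the filter on low counts: against HE-YSA, 12.7% were higher and 18.1% lower without a filter, and 16.1% and 13.3% at 50 CPM. Few yolk sac counts lie behind the shares of *Hnrnpu* (56 in HE-YSA and 42 in HE-YSP), *Hnrnpa3* (101 and 121) and *Hnrnpl* (142 and 129), which limits their precision.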

Other observations

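The 3 HE-YSA cells whose cDNA project or library name goes against their label differed among themselves. *Hnrnpl* was at 0, 0 and 351 CPM in them, *Hnrnpa1* at 308, 212 and 355 CPM, and *Hnrnpk* at 232, 482 and 351 CPM. Without these cells the log2 ratio of HE-AGM over HE-YSA was 2.76 for *Hnrnpl* and 2.24 for *Hnrnpa1*. The 2 cells at 0 for *Hnrnpl* include the 1 cell that shares a cDNA project with AGM cells. Since 27 of the 52 HE-YSA cells were at 0, this 1 cell cannot tell tissue from cDNA project.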
